A study of Mus musculus with 2 samples.

Results

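The Hox genes encode homeodomain transcription factors that sit in 4 clusters, Hoxa, Hoxb, Hoxc and Hoxd, and tell cells where along the body they lie. Their 39 protein-coding members in mouse were taken from the arrays by matching each non-control probe's RefSeq accession to a gene named Hoxa, Hoxb, Hoxc or Hoxd with a number, and all 39 were present, read by 43 of 55678 probes. Gene expression had been measured in cells labelled primary keratinocytes, which form the epidermis, with 1 Agilent 1-colour array for mice labelled Rac3-KO, which the labels name as the control, and 1 array for mice labelled Rac1Rac3-DKO. A label for loss of Rac3, a small GTPase, is therefore shared by both samples, and loss of the related GTPase Rac1 is labelled for the second sample only. The labels call the cells P3 without saying what P3 counts, and the strain, the number of animals, the deleted exons and any Cre driver are not given in the sources used here. With 1 array per genotype there was no replicate to check a difference against and no test of a difference between the genotypes.

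Within each cluster the genes are numbered along the chromosome. Genes with low numbers lie at the 3′ end and are switched on in anterior parts of the embryo, and genes with high numbers lie at the 5′ end and mark posterior and distal parts, a rule called colinearity. Genes with the same number in different clusters are paralogues, copies of an ancestral gene that often share functions. Skin keeps such a pattern after birth: dermal fibroblasts of human skin hold a Hox code of their body site, and the hair follicle uses Hoxc13. Here paralogues 1 to 3 are called anterior, 4 to 8 central and 9 to 13 posterior.

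The arrays measured more than keratinocytes. All 12 keratinocyte markers examined were well above background on both arrays, but so were all 12 markers of dermal fibroblasts, all 12 of skeletal muscle and all 10 of endothelium. So were 10 of 11 leukocyte and 7 of 8 adipocyte markers. The call alone says little, since 75.2% and 72.2% of all protein-coding genes passed it in the Rac3-KO and DKO-labelled samples. Summed levels of the markers are given further below. The 75th percentile of the processed signal was 704.9 in the Rac3-KO sample and 354.4 in the DKO-labelled sample, and the lowest signal that the scanner software called well above background was 23.4 and 20.1. Levels below are log2 processed signals minus this percentile of the same array, and a difference is the DKO-labelled level minus the Rac3-KO level. The size of a level depends on its probe, so each gene's level was compared between arrays and genes were not ranked by level. The errors given are technical: the scanner software's signal error on a log2 difference had a median of 0.21 for the Hox genes, and different probes of a gene differed by a root mean square of 0.38 over all genes. Rac1, the gene that separates the labels, had signals of 15327 and 19847 at its 2 probes in the Rac3-KO sample and 7078 and 12140 in the DKO-labelled one, and its scaled differences of -0.12 and 0.28, each with a signal error of 0.20, did not show the loss that the label names. Rac3 was well above background in both, at 99.8 and 59.1. Whether these probes lie in the deleted parts was not determined, so they check neither label.

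Promoters of some members are printed here so that their letters can be set beside the values that follow. The RefSeq table of build GRCm38.p6 held a promoter, from 250 bases before to 50 bases after a transcript's start, for 22 of the 39 members. The first pair belongs to Hoxa2 and Hoxa5, which were at least 2-fold lower in the DKO-labelled sample. The next pair belongs to Hoxd8 and Hoxd9, whose differences were positive (negative under spike-in scaling). That of Hoxd8, 0.22, was close to its signal error of 0.20, and that of Hoxd9 was 0.46 with an error of 0.21. The last promoter belongs to Hoxd13, which was not well above background on either array. Capitals mark matches, on either strand, to 6 short motifs: TTTATNG (Cdx-like), TGATTNAT (Pbx and Hox together), TGACAG (Meis), AGGTCA (a retinoid receptor half-site), CCAAT and TATAAA.
Hoxa2 promoter, chr6:52164782-52165081, minus strand: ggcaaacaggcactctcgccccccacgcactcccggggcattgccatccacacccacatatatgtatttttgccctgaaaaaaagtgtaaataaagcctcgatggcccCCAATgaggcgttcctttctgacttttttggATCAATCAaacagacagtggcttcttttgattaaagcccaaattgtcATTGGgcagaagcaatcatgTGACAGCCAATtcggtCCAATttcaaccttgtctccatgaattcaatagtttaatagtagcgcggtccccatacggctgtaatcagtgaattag
Hoxa5 promoter, chr6:52204538-52204837, minus strand: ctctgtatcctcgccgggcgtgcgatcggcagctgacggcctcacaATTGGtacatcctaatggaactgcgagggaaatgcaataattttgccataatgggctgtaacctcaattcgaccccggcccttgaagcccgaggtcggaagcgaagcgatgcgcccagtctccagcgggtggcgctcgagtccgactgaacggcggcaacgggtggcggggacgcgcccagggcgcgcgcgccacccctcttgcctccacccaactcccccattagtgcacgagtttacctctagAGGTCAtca
Hoxd8 promoter, chr2:74704365-74704664, plus strand: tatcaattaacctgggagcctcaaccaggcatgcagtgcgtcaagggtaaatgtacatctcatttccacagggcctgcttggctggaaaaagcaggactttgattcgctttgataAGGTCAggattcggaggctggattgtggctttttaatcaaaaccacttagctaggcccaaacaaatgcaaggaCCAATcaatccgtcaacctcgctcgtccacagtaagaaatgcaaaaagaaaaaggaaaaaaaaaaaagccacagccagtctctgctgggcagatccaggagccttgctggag
Hoxd9 promoter, chr2:74697513-74697812, plus strand: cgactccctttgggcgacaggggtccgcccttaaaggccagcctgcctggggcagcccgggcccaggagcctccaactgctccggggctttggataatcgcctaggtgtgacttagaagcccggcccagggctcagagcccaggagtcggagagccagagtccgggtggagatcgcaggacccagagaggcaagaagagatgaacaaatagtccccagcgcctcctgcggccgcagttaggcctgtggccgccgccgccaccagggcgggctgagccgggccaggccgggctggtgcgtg
Hoxd13 promoter, chr2:74667975-74668274, plus strand: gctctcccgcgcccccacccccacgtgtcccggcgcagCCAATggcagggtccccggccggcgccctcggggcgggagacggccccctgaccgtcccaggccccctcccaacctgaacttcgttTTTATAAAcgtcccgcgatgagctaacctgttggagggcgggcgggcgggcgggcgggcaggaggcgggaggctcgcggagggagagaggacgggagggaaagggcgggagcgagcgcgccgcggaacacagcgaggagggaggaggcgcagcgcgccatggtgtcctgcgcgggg

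The promoters of Hoxa2 and Hoxd9 differ in base composition as well as in motifs. The Hoxa2 window holds 45.7% G and C, 9 CpG pairs, 4 CCAAT matches, 1 TGACAG match and 1 TGATTNAT match, whereas the Hoxd9 window holds 68.3% G and C, 20 CpG pairs and a match to none of the 6 motifs. Over 24 promoters of the 22 members, the median was 57.7% G and C and 14.5 CpG pairs, against 56.3% and 13 over 21263 promoters of protein-coding genes. CCAAT occurred in 62.5% of the Hox promoters and in 38.2% of all promoters, AGGTCA in 29.2% and 14.7%, and TGATTNAT in 8.33% and 2.75%. TGACAG occurred in 8.33% of the Hox promoters and 18.7% of all, TTTATNG in 8.33% and 9.58%, and TATAAA in 16.7% and 12.6%. In the Hoxa2 window TGACAG and a CCAAT adjoin, in the Hoxd13 window the TATAAA matches of both strands overlap, and each match is a description of letters only. AGGTCA was in 5 of 13 promoters of members above background in both samples, in 2 of 4 of those above it in the Rac3-KO sample alone and in 0 of 7 of those above it in neither. In the same groups and order, CCAAT was in 7, 4 and 4 promoters, TATAAA in 3, 0 and 1, and TGATTNAT in 1, 0 and 1. TTTATNG and TGACAG were each in 2, 0 and 0. A link between motifs and detection was not tested.

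**Figure D1:**
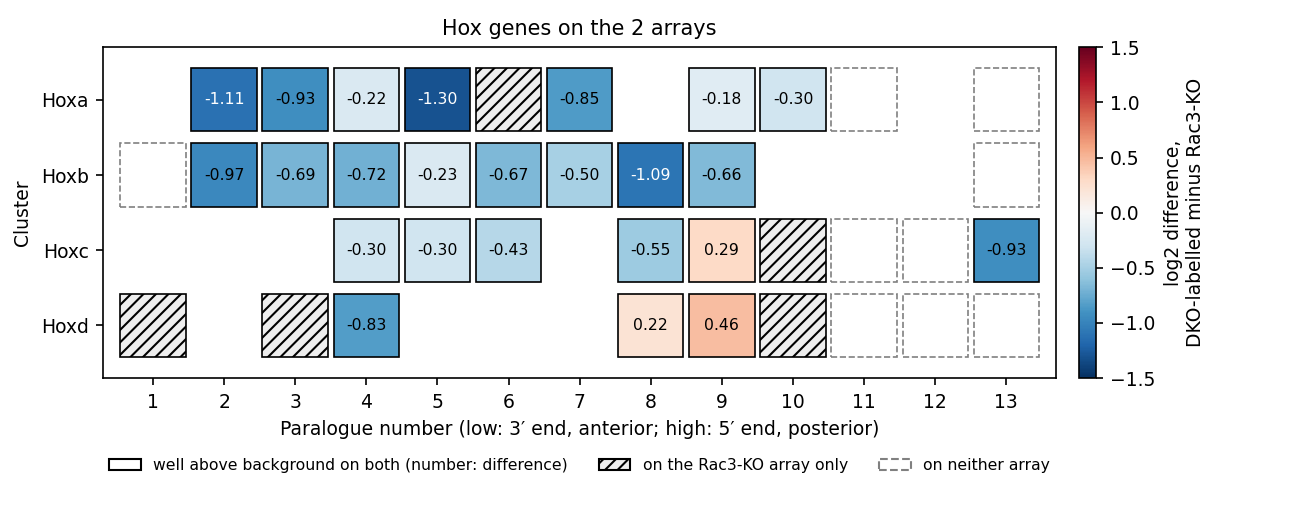
Each square is a Hox gene, placed by cluster (rows) and paralogue number (columns), and its colour and number give the log2 difference of the DKO-labelled minus the Rac3-KO sample. Dashed squares, on neither array above background, gather at paralogues 11 to 13, with Hoxb1 as the exception at the anterior end, 1 measured member is not shown, and 22 of the 25 measured members are below 0 (17 with normexp background correction, and all 25 when the arrays are scaled by spike-ins).

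Most Hox genes numbered 1 to 10 were well above background in the Rac3-KO sample, and those numbered 11 to 13 were not, apart from Hoxc13. Of 39 Hox genes 30 were well above background in the Rac3-KO sample and 25 in the DKO-labelled sample, where 75.2% and 72.2% of 19557 protein-coding genes were. All 15 central genes and all 7 genes numbered 9 or 10 were detected in the Rac3-KO sample, but only 1 of the 9 genes numbered 11 to 13. In the DKO-labelled sample 5 of 8 anterior genes, 14 of 15 central genes and 5 of the 7 genes numbered 9 or 10 were detected. Hoxc13, a regulator of hair keratin genes whose loss leaves mice hairless, had signals of 1194 in the Rac3-KO sample and 314.9 in the DKO-labelled sample.

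The 9 members that were above background on neither array were Hoxa11, Hoxa13, Hoxb1, Hoxb13, Hoxc11, Hoxc12, Hoxd11, Hoxd12 and Hoxd13. Their signals ran from 4.9 through a median of 5.9 to 26.8 in the Rac3-KO sample, and from 4.2 through 4.7 to 19.3 in the DKO-labelled sample. Hoxa13 and Hoxd13 pattern the digits and the genital tubercle, Hoxa11 and Hoxd11 the forearm, and Hoxb13 the tail end of the trunk. Hoxb1 is the anterior member of this group and marks a segment of the embryonic hindbrain. Hoxa11 was spotted 10 times and not well above background on either array, with a spread (SD) between spots of 0.40 in the Rac3-KO sample and 0.56 in the DKO-labelled sample, in log2 units. Hoxa13 was read by 2 probes, both not well above background, and Hoxc11 had 26.8 in the Rac3-KO sample without passing the software's call. These calls limit what could be seen and do not show that the genes were silent.

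Most Hox genes that could be measured were lower in the DKO-labelled sample. Among the 25 members measured, meaning well above background in both samples, 22 had a difference below 0, against 50.7% of 13889 protein-coding genes. The median difference was -0.66, and over all measured genes it was -0.01. At a threshold of 2-fold, 4 Hox genes were lower, Hoxa2, Hoxa5 and Hoxb8 among them, and 0 were higher, where 6.66% of all measured genes were lower and 7.67% higher. At 1.5-fold 13 were lower and 0 higher, against 16.6% and 18.1% of all measured genes. The difference exceeded the 95% interval of the signal error below 0 for 15 Hox genes and above 0 for 1, Hoxd9, against 24.7% and 24.3% of all measured genes. With normexp background correction 17 of the 25 were below 0 and the median was -0.52. Scaling to the spike-in RNAs moved the median of all genes to -2.04 and that of the Hox genes to -2.69, so that all 25 were below 0 and 22 lay below the all-gene median.

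**Figure D2:**
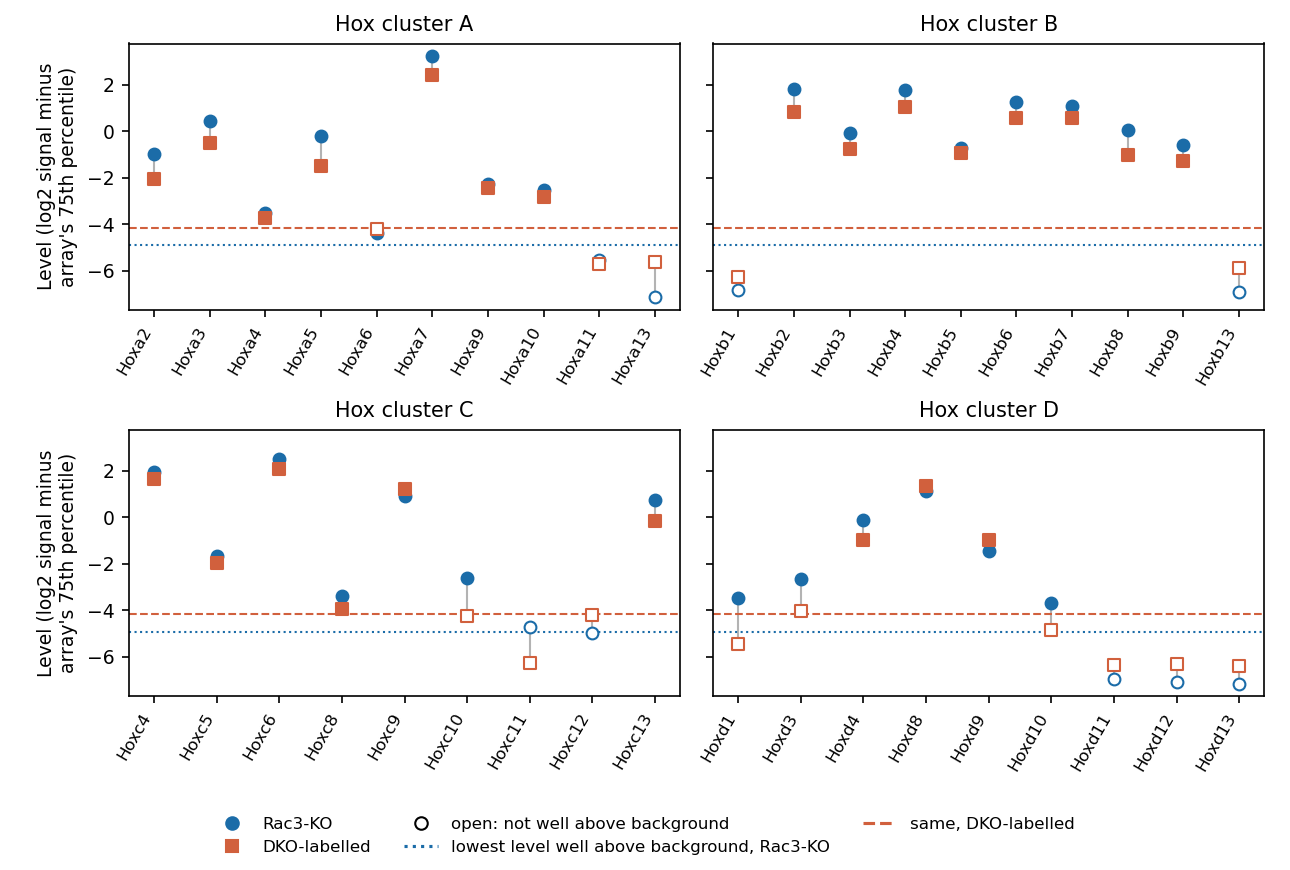
Levels of Hox genes (log2 signal minus the array's 75th percentile, 1 member not shown) are drawn by cluster, with circles for the Rac3-KO sample, squares for the DKO-labelled sample and open symbols for probes not well above background. Heights compare the arrays within a gene, not different genes, and Hoxc9, Hoxd8 and Hoxd9 are the filled pairs whose square lies above the circle (below it under spike-in scaling).

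Hoxa genes were among the members that were at least 2-fold lower. Hoxa5, which patterns the neck and upper trunk and is needed for lung development, had a signal of 617.1 in the Rac3-KO sample and 125.6 in the DKO-labelled sample, or levels of -0.19 and -1.497, and was 2.47-fold lower. Hoxa2, the selector gene of the second branchial arch, had levels of -0.96 and -2.07 and was 2.17-fold lower. With normexp the difference of Hoxa2 was -0.75, under 2-fold, and that of Hoxa5 was -1.07.

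The next members of the cluster differed in size but not in direction. Hoxa3, which patterns the thymus and throat, had levels of 0.43 and -0.50 in the Rac3-KO and DKO-labelled samples, a difference of -0.93. Hoxa7, a gene of the thoracic region, had signals of 6725 and 1881 and a difference of -0.85. Both genes were lower by more than 4 times their signal errors of 0.21 and 0.20.

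Hoxa4, Hoxa9 and Hoxa10 differed by less than their errors allow to be told from 0. Hoxa4 had signals of 61.5 and 26.5 and a difference of -0.22 beside a signal error of 0.35. The 2 probes of Hoxa9, a gene of the lower trunk also known from blood stem cells, differed by -0.18 and -0.43. Hoxa10, which patterns the lumbar spine and the uterus, had signals of 122.5 and 50.2 and a difference of -0.295 with an error of 0.26. All 3 genes lay above 0 with normexp, at 0.38 for Hoxa4, 0.03 for Hoxa9 and 0.28 for Hoxa10. With loess scaling Hoxa4 was at -0.61 and Hoxa10 at -0.465. Hoxa6 was above background in the Rac3-KO sample alone, at signals of 34.4 and 19.3, but its scaled levels of -4.36 and -4.20 gave no fold.

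All 8 Hoxb genes from Hoxb2 to Hoxb9 were well above background on both arrays, and all 8 were lower in the DKO-labelled sample at every scaling tried. Their median difference was -0.68, and 7 of the 8 lay beyond the 95% interval of the signal error. Hoxb8, a trunk gene that in mice is also needed in microglia for normal grooming, had signals of 739.2 in the Rac3-KO sample and 174.3 in the DKO-labelled sample and was 2.13-fold lower, with -0.87 in place of -1.09 under normexp. Hoxb2, a hindbrain gene, had signals of 2466 and 633.0 and a difference of -0.97 (-1.02 with normexp).

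The other central Hoxb genes lay between Hoxb4 and Hoxb5 in their differences. Hoxb4, known for its effect on blood stem cells, had levels of 1.76 and 1.03 in the Rac3-KO and DKO-labelled samples and a difference of -0.72. Hoxb6 had levels of 1.25 and 0.58 and a difference of -0.67, and Hoxb7 had 1.07 and 0.58 and a difference of -0.50. Hoxb5 had levels of -0.72 and -0.95, and its difference of -0.23 was close to its signal error of 0.21.

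At the ends of this stretch, Hoxb3 was read by 2 probes, which differed by -0.69 and -0.45, and Hoxb9, a gene of the rib-bearing trunk, had levels of -0.60 and -1.26 and a difference of -0.66. In the RefSeq table the gene model of Hoxb3 spans Hoxb4 and that of Hoxa3 spans Hoxa4, Hoxa5 and Hoxa6. The promoter window of Hoxd3 lies upstream of that of Hoxd4 on the same strand. Which transcripts the probes of these genes read was not determined.

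The central Hoxc genes had small differences, and the posterior ones lay on both sides of 0. Hoxc4, Hoxc5, Hoxc6 and Hoxc8, central genes of the neck and thoracic region, had differences of -0.30, -0.30, -0.43 and -0.55, and only Hoxc6, with signals of 4078 in the Rac3-KO sample and 1522 in the DKO-labelled sample, lay beyond the 95% interval of the signal error. Hoxc8 was close to the floor in the DKO-labelled sample, at 67.3 and 23.1, and was at 0.26 with normexp and at -0.94 with loess scaling. Hoxc5 was at 0.11 with normexp.

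Hoxc9, Hoxc10 and Hoxc13 are the posterior Hoxc genes that were detected. Hoxc9, a gene of the trunk that is also known as a marker of inguinal fat, had signals of 1343 in the Rac3-KO sample and 828.3 in the DKO-labelled sample, and its scaled difference was 0.295 with a signal error of 0.20. Hoxc10, a gene of the lumbar region and hindlimb, had signals of 115.2 and 18.8, passed the background call in the Rac3-KO sample alone, and was at least 2.88-fold lower. Hoxc13 had levels of 0.76 and -0.17 and a difference of -0.93 with an error of 0.21.

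Genes of the hair shaft, the known setting of Hoxc13, were also low in the DKO-labelled sample. Among 11 measured hair shaft genes 5 reached 2-fold lower and 0 reached 2-fold higher, against 6.66% and 7.67% of all measured genes. The median difference of the hair shaft genes was -0.88 (-0.48 with normexp). Being low was not particular to them: keratinocyte markers had a median of -1.82, and 10 of 12 were at least 2-fold lower. The hair keratin genes Krt86 and Krt33b differed by -2.31 and -2.13, Krt35 by -0.39, and the homeobox gene Dlx3 by 0.83. Of 16 hair shaft genes on the array, 4 others passed the background call in the Rac3-KO sample alone, against 4.15% of all protein-coding genes. How far the amount of hair follicle in each sample enters the Hoxc13 value was not tested.

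The Hoxd cluster held differences of both signs. Its first genes and Hoxd10 were lower or not detected in the DKO-labelled sample, and Hoxd8 and Hoxd9 in its middle were the members with positive differences beside Hoxc9. Hoxd3, which patterns the upper neck, had signals of 114.0 in the Rac3-KO sample and 21.6 in the DKO-labelled sample. It was 2.65-fold lower by its own level, which did not pass the background call in the DKO-labelled sample. Hoxd1, which in mice is needed for the wiring of pain-sensing neurons, had 64.1 and 8.1 and was at least 1.60-fold lower. Hoxd10, a gene of the lumbar spinal cord and hindlimb, had 54.6 and 12.3 and was at least 1.37-fold lower.

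These genes, with Hoxa6 and Hoxc10, make up the 5 of 39 that were above background in the Rac3-KO sample alone, against 4.15% of all protein-coding genes. None was above background in the DKO-labelled sample alone, against 1.13%. All 5 were dim, with signals between 34.4 and 115.2 in the Rac3-KO sample, and the lowest scaled level that passed the background call was -4.91 in that sample and -4.14 in the DKO-labelled one. An at-least fold sets the Rac3-KO level against a bound in the DKO-labelled sample. The bound is the dimmest level that passed the background call there or, where higher, the gene's own level. For Hoxd3 it was the gene's own level, so that fold is a plain difference and not a lower limit. The signal error does not enter these folds. It was 0.38 for Hoxd3, 0.43 for Hoxc10, 0.56 for Hoxd10 and 0.83 for Hoxd1.

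Hoxd4, Hoxd8 and Hoxd9 were the members of the cluster measured on both arrays. Hoxd4 had levels of -0.12 in the Rac3-KO sample and -0.96 in the DKO-labelled sample and a difference of -0.83, or -0.52 with normexp. Hoxd8 had levels of 1.13 and 1.36, a difference of 0.22 with an error of 0.20. Hoxd9, a gene of the lower trunk and upper limb, had levels of -1.45 and -0.99, a difference of 0.46 with an error of 0.21. All 3 were below 0 when the arrays were scaled by spike-ins, at -2.86 for Hoxd4, -1.80 for Hoxd8 and -1.57 for Hoxd9. The unscaled signal of Hoxd9 was 258.8 in the Rac3-KO sample and 178.9 in the DKO-labelled one, on arrays whose 75th percentiles were 704.9 and 354.4.

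**Figure D3:**
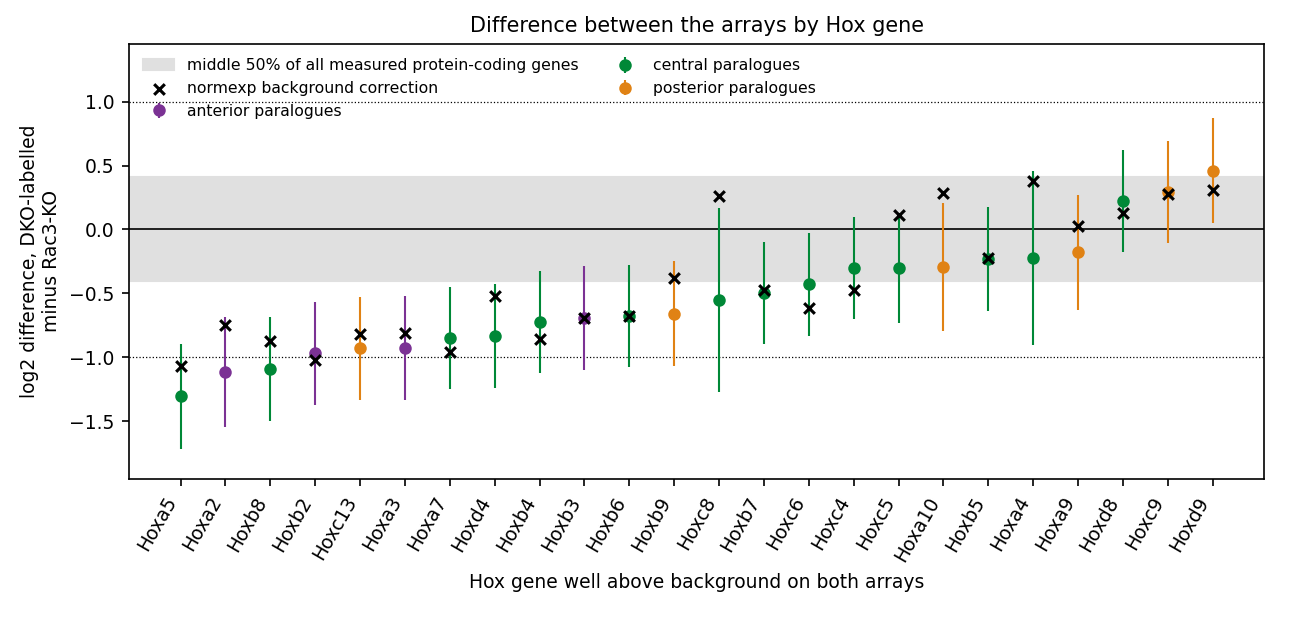
The log2 difference, DKO-labelled minus Rac3-KO, is shown for Hox genes well above background on both arrays (1 measured member is not shown), with bars of the 95% interval from the scanner's signal error (not replicate error) and crosses for normexp background correction. The anterior genes shown lie between -1.11 and -0.69, the crosses of 5 genes turn from below 0 to above it, and the grey band holds the middle 50% of all measured protein-coding genes, from -0.40 to 0.41.

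Among the genes measured in both samples, the anterior ones had the lowest differences as a group. The 5 measured anterior genes had a median of -0.97, the 14 central genes -0.52 and the 6 posterior genes -0.24. With normexp the medians were -0.81, -0.50 and 0.15, so the posterior median changed sign. All values here leave out genes that dropped under the background call in the DKO-labelled sample. Of these, the posterior Hoxc10 and Hoxd10 were at least 2.88-fold and 1.37-fold lower. The anterior Hoxd3 was 2.65-fold lower by its own level, Hoxd1 was at least 1.60-fold lower, and the central Hoxa6 gave no fold. The signal error does not enter these folds. Every anterior gene measured was at least 1.5-fold lower, as 6 of 14 central and 2 of 6 posterior genes were, against 16.6% of all measured genes. Across the 25 genes, which share both arrays and neighbouring sequence and are not independent replicates, Spearman's rho between paralogue number and difference was 0.48, and 0.47 with normexp.

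Over the genes measured in both samples, cluster medians were -0.89 for 8 Hoxa genes, -0.68 for 8 Hoxb genes, -0.37 for 6 Hoxc genes and 0.22 for 3 Hoxd genes. The Hoxd value leaves out Hoxd1, Hoxd3 and Hoxd10, which dropped under the background call in the DKO-labelled sample, so it does not describe the cluster as a whole. Within Hoxa the anterior, central and posterior medians were -1.11, -0.85 and -0.24, and within Hoxb they were -0.83, -0.675 and, for Hoxb9 alone, -0.66. Central genes, which were measured in every cluster, had medians of -0.85 in Hoxa, -0.675 in Hoxb, -0.365 in Hoxc and -0.31 in Hoxd, each over 2 to 5 genes. Among paralogues, for number 4 the differences were -0.22, -0.72, -0.30 and -0.83 in Hoxa4, Hoxb4, Hoxc4 and Hoxd4, and for number 9 they were -0.18, -0.66, 0.295 and 0.46 in Hoxa9, Hoxb9, Hoxc9 and Hoxd9. With normexp Hoxa4 was above 0 too, and under spike-in scaling all of these genes were below 0.

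Hox proteins bind DNA with partners of the TALE homeodomain family, and the genes of these partners spread to both sides of 0. Among 8 measured TALE genes 5 were below 0, 3 reached 2-fold higher and 0 reached 2-fold lower. Of all measured genes 50.7%, 7.67% and 6.66% did so. The median TALE difference was -0.08. Pknox2 had signals of 175.4 in the Rac3-KO sample and 243.1 in the DKO-labelled sample, a difference of 1.46. Meis3 had a difference of 1.16, and Pbx2, the lowest, -0.66. On the same arrays muscle markers had a median of 2.03 and fibroblast markers of 0.77.

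The chromatin regulators that hold Hox genes off or on were slightly lower as groups, with none at least 2-fold apart. Among 22 measured Polycomb genes, the repressors of Hox clusters, 19 were below 0, against 50.7% of all measured genes. The Polycomb median was -0.31, and 0 were at least 2-fold higher or lower, where 7.67% and 6.66% of all measured genes were. Cbx2 had the lowest difference, -0.91, Ezh1 the highest, 0.15, and Rbbp7 and Rbbp4 differed by -0.14 and -0.29. Among 13 measured Trithorax genes and histone demethylases, which keep Hox genes on, 11 were below 0 and the median was -0.27. Dpy30 and Kmt2d lay at the ends with -0.89 and 0.79, and Men1 and Wdr5 differed by -0.27 and -0.08.

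Retinoic acid and Cdx factors set Hox expression in the embryo. The 3 genes Cdx1, Cdx2 and Cdx4 were above background on neither array. Of the 13 measured genes on the list, all of them genes of retinoic acid handling or its receptors, 2 were at least 2-fold higher, namely the synthesis enzymes Aldh1a1 at 1.29 and Aldh1a2 at 1.04, and 1 was lower, the binding protein gene Crabp1 at -1.76. The retinoic acid-degrading enzyme gene Cyp26b1 differed by 0.24 and the receptor gene Rara by 0.03. The median was 0.14.

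Among 21 other measured genes of limb and regional position 5 were below 0, where 50.7% of all measured genes were. The median of the 21 was 0.29. Of them 2 reached 2-fold higher and 1 reached 2-fold lower, against 7.67% and 6.66% of all measured genes. Pitx1, a hindlimb gene, had signals of 91.4 in the Rac3-KO sample and 120.5 in the DKO-labelled sample, a difference of 1.39, and Isl1 differed by 1.096. Pax3, a gene of muscle precursors and melanocytes, differed by -1.25 beside melanocyte markers with a median of -0.99. Tbx15 and Prrx1, dermal and limb mesenchyme genes, differed by 0.55 and 0.53. The forelimb gene Tbx5 and the hindlimb gene Tbx4 were above background in both samples, with differences of 0.80 and 0.29, and En1, a gene of the dorsal trunk dermis, was in neither.

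Homeobox genes outside the clusters spread wider than the Hox genes. Of 34 measured, 19 were below 0, against 50.7% of all measured genes, and the median was -0.20 (0.17 with normexp). Among the 34, 6 reached 2-fold lower and 3 reached 2-fold higher, against 6.66% and 7.67% of all measured genes. Dlx3 and Msx2 are also on the hair shaft list. Dlx4 and Irx2 differed by -1.90 and -1.37, Six2 by 1.39, and Lhx2 and Irx1, known from hair follicle and epidermis, by -1.27 and -0.54. Of 18 measured genes that flank the clusters 12 were below 0, with a median of -0.18, and only Nfe2, at 1.29, was at least 2-fold apart. The shares of all measured genes just given are the ones to set beside these counts. Skap1 differed by -0.58, and Atp5g3 and Hnrnpa3 by 0.31 and -0.37. Evx1, the homeobox gene next to Hoxa13, had signals of 68.9 and 4.6, passed the background call in the Rac3-KO sample alone, and was at least 1.72-fold lower.

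Of 25 listed noncoding RNAs of the clusters, 2 could be named on the array, where many probes stayed unnamed. Hoxd3os1, transcribed opposite Hoxd3, had signals of 105.4 in the Rac3-KO sample and 89.6 in the DKO-labelled sample. Its scaled difference of 0.76 was opposite in sign to that of Hoxd3, -1.41. The unscaled signals of both genes were lower in the DKO-labelled sample. Hoxa11os, opposite Hoxa11, had 34.8 and 23.1 and was above background in the Rac3-KO sample alone.

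**Figure D4:**
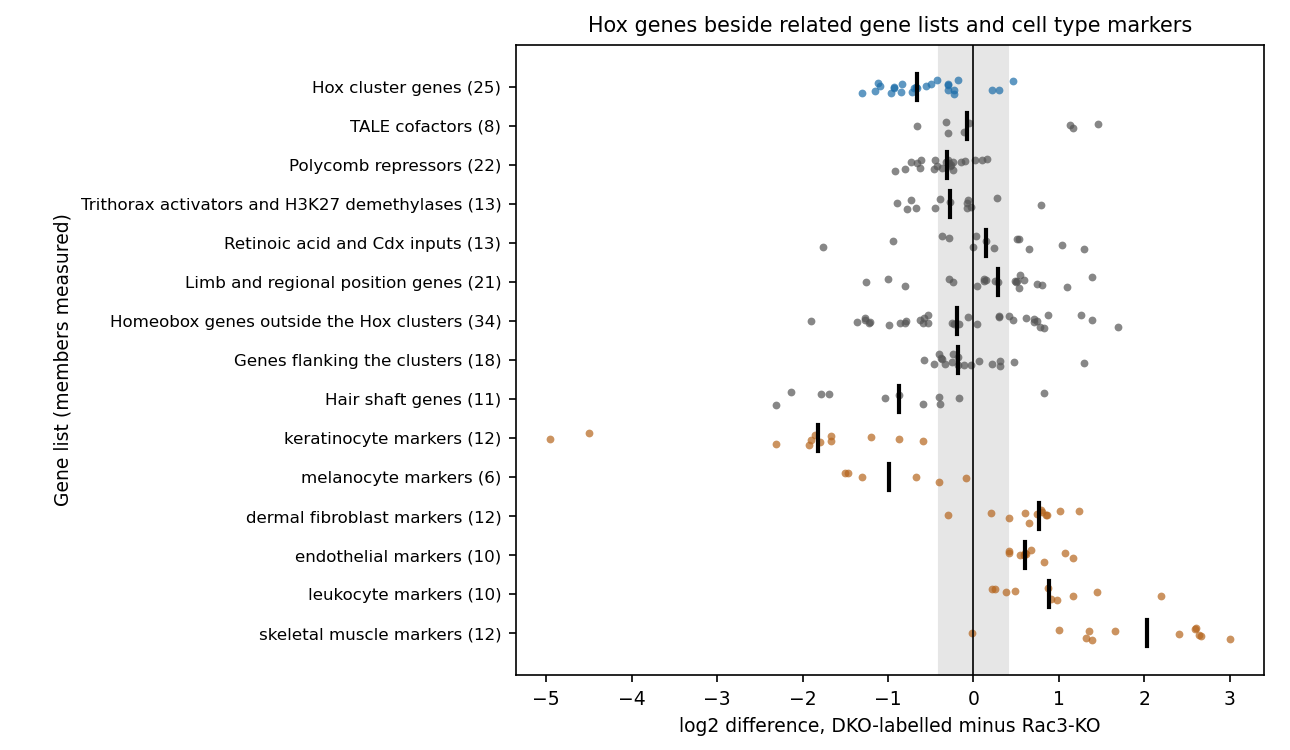
Each point is a gene well above background on both arrays, placed by its log2 difference (DKO-labelled minus Rac3-KO), with a bar at each list's median and a grey band for the middle 50% of all measured protein-coding genes. The Hox genes, at a median of -0.66, lie between the keratinocyte markers at -1.82 and the fibroblast and muscle markers at 0.77 and 2.03 (all at 75th percentile scaling; spike-in scaling puts the median of all genes at -2.04).

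Markers of cell types differed strongly between the samples. Of 12 keratinocyte markers 10 were at least 2-fold lower, with a median of -1.82 and a log2 summed level of 9.75 in the Rac3-KO sample and 7.78 in the DKO-labelled sample. Of 12 skeletal muscle markers 10 were at least 2-fold higher, with a median of 2.03 and summed levels of 8.54 and 10.995. Of 12 dermal fibroblast markers, the cells known for a positional Hox code, 2 were at least 2-fold higher and 1 was below 0, with a median of 0.77 and summed levels of 10.7 and 11.5. The Hox median of -0.66 lay below 0. So did, among others, the medians of keratinocyte (-1.82), melanocyte (-0.99), hair shaft (-0.88), nerve and Schwann (-0.39) and Polycomb genes (-0.31). Fibroblast and muscle medians lay above 0 at this scaling. A link between these signs was not tested.

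The other markers split likewise. Median differences were -0.99 over 6 melanocyte markers and -0.39 over 5 markers of nerve and Schwann cells, with summed levels of 6.47 and 5.35, and 3.47 and 3.22. They were 0.89 over 10 leukocyte, 0.61 over 10 endothelial, 0.57 over 7 adipocyte and 0.75 over 4 erythroid markers. Summed levels of these were 6.86 and 7.53, 5.64 and 6.33, 7.47 and 8.02, and 9.38 and 10.11. Markers above background on neither array were the Langerhans cell gene Cd207, the adipocyte gene Lep and the Schwann cell gene Cdh19. In such bulk samples fewer cells of a type and less RNA per cell cannot be told apart, and the part of cell make-up in the Hox differences was not tested.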

How the data were processed

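RNA from 1 Rac3-KO and 1 Rac1Rac3-DKO sample was hybridised to Agilent 1-colour arrays of design build mm9. The scanner files as deposited hold spot intensity from Feature Extraction 10.10.1.1, background-subtracted and detrended within the array, per the file headers. Version 9.1 of that software is the one in the submitters' processing notes. Both arrays share a slide and scan, per the file headers. The value table that the authors deposited holds log2 values, and for probes spotted once 100% of its values lie within 0.001 of the log2 processed signal less 1 constant per array; its medians are -3.72 and -3.62.

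Log2 signals were averaged over a probe's spots without control and outlier spots (155 and 190 left out), and each array's 75th percentile over 55678 probes was subtracted. No spot was saturated. Accessions named 26580 probes as 20144 genes through the GRCm38.p6 RefSeq table, used for names, gene order and promoters; 29098 probes stayed unnamed. A gene was represented by its brightest probe, called detected on an array with any probe well above background there (at least 50% of the spots, for repeated probes), and called measured when its brightest probe passed on both arrays. Repeated spots of 276 probes had a median SD of 0.09 of the log2 difference. No p-value was computed. Outside the members, genes named are, per list, up to 2 each way at least 2-fold apart (else the largest each way) and the 2 brightest, with Rac1, Rac3 and the noncoding RNAs; genes named beyond that were chosen after their values were seen: the Cdx genes, Tbx5, Tbx4, En1, Evx1, Cd207, Lep and Cdh19. A few genes are not reported here by name, though they count in the totals. The members and lists were chosen with earlier results of these data known. Counting was tested on simulated data. Normexp (limma 3.58.1, offset 50) used the median spot signal in place of the planned mean. Python 3.11.15, pandas 2.3.3 and statsmodels 0.14.6 were used.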

Additional observations from a re-analysis of the deposited data

How the results depend on the processing

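No paired analysis was possible because each genotype had 1 array, and no replicate could be left out. Only counts and values are compared here, over scalings, background correction, probe choice, detection filters, fold thresholds and the deposited value table. A value was taken as moved when it changed by more than 0.38, the spread between probes, and a count when it changed by over 1.5 times. Scaling by spike-ins moved the Hox median to -2.69, the medians of Hoxa to Hoxd to -2.91, -2.71, -2.39 and -1.80, and those of anterior, central and posterior genes to -2.996, -2.55 and -2.26, with 25 genes at least 2-fold lower. The count of 4 genes at least 2-fold lower became 7 with scaling to the array median, 2 with normexp, 9 without a detection filter, 13 at 1.5-fold and 0 at 3-fold, and 2 genes were at least 2-fold higher without a detection filter, both of them above background on neither array. Normexp moved the posterior median to 0.15 and the hair shaft median to -0.48. Without a detection filter the Hoxa median was -0.295, the retinoic acid and Cdx median 0.52 and the median of other homeobox genes 0.48, since signals at the floor enter. Of the remaining recomputed medians, counts and correlations, 125 stayed within these limits. Of the recomputed differences of single Hox genes 216 stayed and 31 moved. Of those that moved, 25 did so under spike-in scaling, 4 under normexp and 2 under loess, Hoxa4 to -0.61 and Hoxc8 to -0.94. Many of the 216 could not move, so their number is no measure of robustness. Detection filters leave a gene's difference as it is, and averaging probes alters only genes with more than 1 probe. The array median, the percentile over detected probes and the deposited values shift all genes by the same small amount. Normexp put 5 dim genes above 0: Hoxa4, Hoxa9, Hoxa10, Hoxc5 and Hoxc8. The causes were not tested. The number of arrays and, for members within a few-fold of the floor, signal over background limit every value.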
